A study of Mus musculus with 2 samples.

Results

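The proteasome genes of mouse heart were taken as the rows whose gene symbol begins with Psm, a letter from a to g and a number, which gave 50 of the 24346 genes listed. Of these, 48 encode subunits, activators, regulators or assembly factors of the proteasome. Psme2b is a retrogene of Psme2, and Psmc3ip is named after its binding to the ATPase Psmc3 but serves meiotic recombination. The data are 2 RNA sequencing libraries of heart tissue from mice on a high-fat diet with myocardial infarction. Both carry an age label of day 14. The treated group received probucol, a cholesterol-lowering antioxidant, and the untreated group received no drug by its label. The diet and the infarction are shared by both groups. The labels give no genotype, and the mark HypoE in the column headings of both libraries, which may name one, has no explanation there and was left uninterpreted. They also do not give the start of the day count, and do not say whether a library came from 1 animal or a pool. Each group has 1 library, so no difference has a replicate check or a test between treatments, and every statement describes these libraries.

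The proteasome is the large protease that degrades proteins marked with ubiquitin. Its 20S core is a barrel of 4 rings, of which the outer rings are made of alpha subunits and the inner rings of beta subunits, and 3 of the beta subunits carry the proteolytic sites. The 19S cap binds ubiquitin chains, removes them, unfolds the substrate with a ring of ATPases and feeds it into the core. In leukocytes, and in other cells exposed to interferon-gamma, newly built cores carry the immune subunits Psmb8, Psmb9 and Psmb10 in place of Psmb5, Psmb6 and Psmb7. Such immunoproteasomes alter the peptides that are offered on class I histocompatibility molecules. Heart muscle depends on the proteasome for turnover of its contractile proteins.

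FPKM, the deposited unit, counts fragments relative to transcript length (in kb) and library depth. In low-valued genes, 1 FPKM over 1 kb of effective transcript length was worth 6.66 fragments with probucol and 7.46 without. These values stand for depth only if FPKM was scaled to each library's own total, which is not stated. Heart muscle markers such as Actc1, cardiac actin, were at 9906 and 8283 FPKM, and 10 of 10 markers were above 0 on the log2 ratio scale. Differences are given as log2((FPKM probucol + 0.5)/(FPKM untreated + 0.5)). They were read for genes with a mean of at least 0.5 FPKM, called measured. This filter kept 12882 genes in all and 49 of the 50 members. The member below it was Psmb11.

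The sequences upstream of Psmb8 and Psmb9 and of the constitutive partners Psmb5 and Psmb6 are shown because the comparison of immune with constitutive subunits turns on these genes. Each stretch is the 200 bases before the start annotated by RefSeq (GRCm38.p6), on the gene's own strand. For Psmb8 and Psmb9 GENCODE M21 sets an earlier start, so by that annotation their stretches lie within the gene. It also sets an earlier start for Psmb5, at 54618022, so the last bases of that stretch lie within the gene. Capitals mark matches, on either strand, to 4 motifs: GAAANNGAA (core of the interferon-stimulated response element), TTCNNNGAA (gamma-activated site), TGACNNNGC (core of the antioxidant response element) and CCAAT.
Psmb8 (chr17:34197995-34198194, plus strand): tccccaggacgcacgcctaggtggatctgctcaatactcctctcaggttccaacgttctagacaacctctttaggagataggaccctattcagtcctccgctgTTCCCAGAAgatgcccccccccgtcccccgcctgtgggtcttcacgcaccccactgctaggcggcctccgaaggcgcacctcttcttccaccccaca
Psmb9 (chr17:34187331-34187530, minus strand): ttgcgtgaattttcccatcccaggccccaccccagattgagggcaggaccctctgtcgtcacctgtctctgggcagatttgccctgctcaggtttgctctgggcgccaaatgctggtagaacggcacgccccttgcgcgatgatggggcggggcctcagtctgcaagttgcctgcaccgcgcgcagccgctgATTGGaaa
Psmb5 (chr14:54617996-54618195, minus strand): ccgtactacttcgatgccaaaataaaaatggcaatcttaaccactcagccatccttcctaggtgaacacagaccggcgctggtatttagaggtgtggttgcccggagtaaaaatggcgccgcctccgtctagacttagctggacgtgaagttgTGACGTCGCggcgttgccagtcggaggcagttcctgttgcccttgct
Psmb6 (chr11:70525157-70525356, plus strand): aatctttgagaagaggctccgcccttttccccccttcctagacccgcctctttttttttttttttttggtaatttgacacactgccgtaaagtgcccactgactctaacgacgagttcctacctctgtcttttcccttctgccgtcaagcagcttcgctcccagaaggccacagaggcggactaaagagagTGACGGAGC

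Psmb8 holds 1 match to TTCNNNGAA, 97 to 89 bases before its start, which 5.46% of 17191 upstream stretches of the same length also hold. Psmb9 holds only a CCAAT box, read on the opposite strand as ATTGG, which 31.6% of all stretches hold. Psmb5 and Psmb6 each hold TGACNNNGC, which 9.39% of all stretches hold, Psmb5 at 47 to 39 bases and Psmb6 at 9 to 1 bases before the start. No match to the 4 motifs lies in the stretch of Psmb10, and that of Psmb7 was not analysed here. Over the 40 proteasome genes with a stretch, TGACNNNGC was found in 3 and CCAAT in 14. GAAANNGAA was found in 3 of the 40, Psmb3, Psmd4 and Psmd9, against 5.42% of all stretches. The matches are descriptions of letters in these windows, and alternative starts were not searched.

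The proteasome genes as a whole were at nearly the same level in both libraries, and the lowest log2 ratio was that of the immune subunit Psmb8. Among the 49 measured members, 1 (Psmb8) was lower with probucol by 1.5-fold or more, where 12.0% of all measured genes were. No member was at least 1.5-fold higher, against 5.52% of all genes. At a 2-fold limit the counts were 0 lower, where 5.14% of all genes were, and 0 higher, where 1.07% were. The median log2 ratio of the measured members was 0.09, beside 0.01 over all measured genes. Within 1.3-fold in either direction, a limit chosen after the values were seen, lay 46 of the 49 members and 67.3% of all measured genes. The exceptions were Psmb8, Psma8 and the assembly chaperone Psmg2. Most members are well expressed, and among the 8079 genes with a mean of at least 5 FPKM that share was 71.5%. The log2 values of the measured members correlated between the libraries with r = 0.994 (Pearson) and rho = 0.992 (Spearman, n = 49 genes), beside 0.953 and 0.958 over all measured genes. These correlations are across genes, which are not independent replicates.

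**Figure D1:**
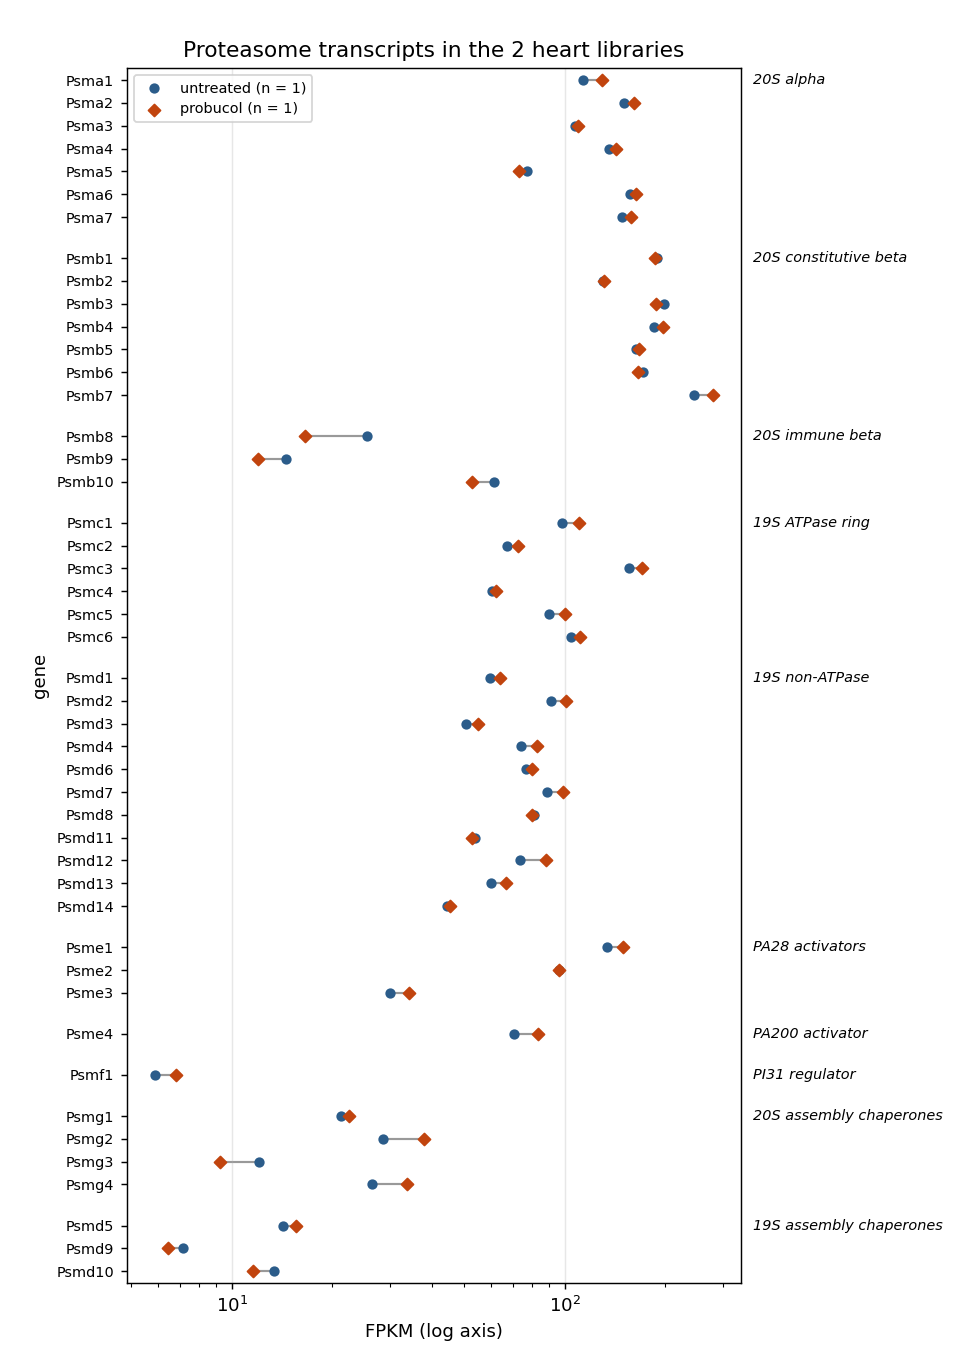
FPKM (log axis) of the measured proteasome genes other than Psma8 in the untreated library (blue circles) and the probucol library (orange diamonds), 1 library each, ordered by subcomplex. The constitutive 20S and the 19S subunits lie between 44.4 and 279 FPKM with the symbols close together, and each of the 3 immune subunits has its probucol symbol to the left of the untreated one, Psmb8 and Psmb9 at lower levels than those subunits and Psmb10 within their range.

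The alpha subunits, which form the outer rings and the gate of the core, ranged from 73.0 to 164 FPKM with probucol and from 77.4 to 157 FPKM without. Psma6 was the most abundant in both libraries and Psma5 the least. Psma1 had 130 FPKM with probucol and 113 without, the highest log2 ratio of the 7 alpha genes at 0.19. Psma5 had 73.0 against 77.4 FPKM, the lowest at -0.08. The remaining alpha subunits lay between these, at 0.03 for Psma3, 0.07 for Psma4 and Psma6, and 0.10 for Psma2 and Psma7. Psma8, an alpha subunit of the testis, was low, with 2.31 against 1.44 FPKM and the highest log2 ratio among the members, 0.53. The 5 testis markers Tnp1, Tnp2, Prm1, Prm2 and Acrv1 were listed at 0 in both libraries.

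The constitutive beta subunits, which form the inner rings, were the most abundant group per length. Their FPKM ranged from 131 to 279 with probucol and from 131 to 244 without, and their median log2 ratio was 0.01. Psmb7, which carries the trypsin-like site, was the most abundant member in both libraries, with 279 FPKM with probucol and 244 without (log2 ratio 0.19). By estimated fragments its ratio was 1.14, with a 95% interval from 1.07 to 1.22. Scaled without the 10 most abundant genes of each library, its log2 ratio was 0.10. Psmb5, which carries the chymotrypsin-like site, had 167 against 163 FPKM. Psmb6, which carries the caspase-like site, had 166 against 172 FPKM. The log2 ratios of Psmb5 and Psmb6 were 0.03 and -0.05, and the intervals of their fragment ratios, 0.928 to 1.13 and 0.867 to 1.07, include 1. The subunits without proteolytic sites were as close, with Psmb1 at -0.02, Psmb2 at 0.01, Psmb3 at -0.08 and Psmb4 at 0.09. Psmb3 was the lowest of the 7, with 189 against 199 FPKM, and Psmb2 the least abundant, with 131 FPKM in each.

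The 3 immune subunits were all lower in the probucol library, by unequal amounts. Psmb8, the immune counterpart of Psmb5 (chromosome 17, 34197721 to 34201454, GRCm38, plus strand), had 16.6 FPKM with probucol and 25.6 without. Its log2 ratio was -0.61, or 1.52-fold lower, just past the 1.5-fold limit. The values stood for about 157 and 271 fragments, with a ratio of 0.650 and an interval from 0.530 to 0.794. Psmb10, the counterpart of Psmb7 (chromosome 8, 105935735 to 105938444, minus strand), had 52.7 against 61.5 FPKM, a log2 ratio of -0.22. It rested on 387 and 506 fragments, with a ratio between 0.749 and 0.981. Psmb9, the counterpart of Psmb6 (chromosome 17, 34181987 to 34187764, minus strand), had 12.0 against 14.6 FPKM, a log2 ratio of -0.27. At 91 and 124 fragments its interval, 0.621 to 1.09, includes 1, so a lower level was not detectable at this depth. The intervals cover counting error only, and their width depends on the annotated transcript lengths. With coding lengths alone in place of whole transcripts, the interval of Psmb8 was 0.472 to 0.878 and that of Psmb10, 0.714 to 1.03, included 1.

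**Figure D2:**
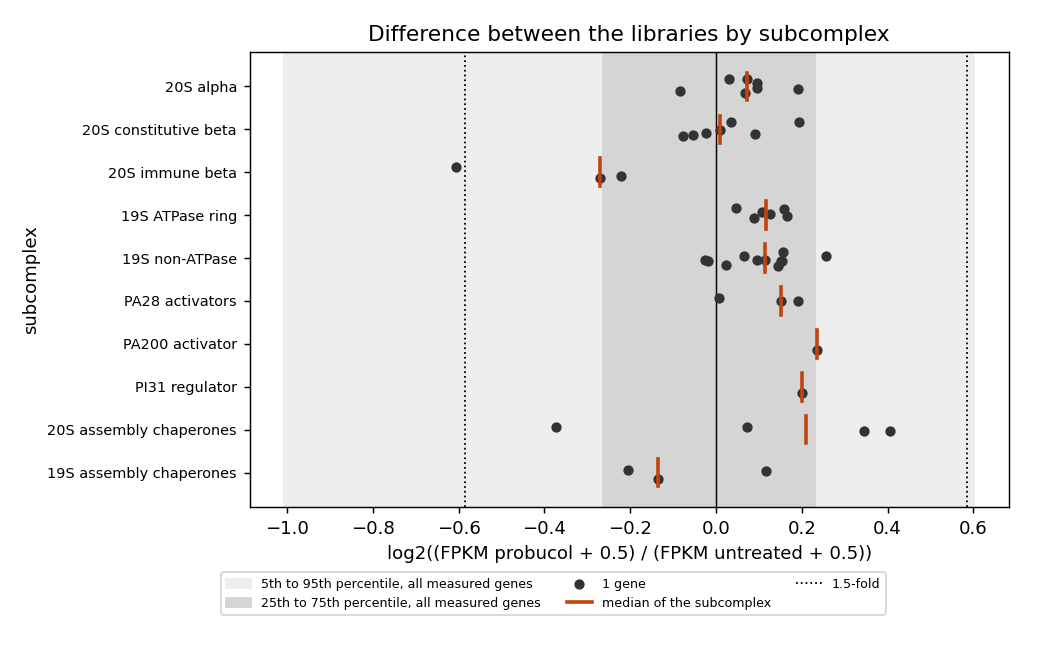
Each point is a proteasome gene, placed by its log2 ratio of probucol over untreated (pseudocount 0.5 FPKM, 1 library each) in its subcomplex, with the median as an orange bar, the spread of all measured genes as grey bands and the 1.5-fold limits as dotted lines. The 19S and constitutive 20S subunits lie between -0.08 and 0.26, and the 3 immune subunits lie at -0.22, -0.27 and -0.61.

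Within a library, the ratio of an immune subunit to its partner does not depend on how the libraries were scaled to each other. For Psmb8 to Psmb5 this ratio was 0.0993 in the treated and 0.157 in the untreated library. The ratio was thus 0.634 times that of the untreated library, with a 95% counting interval from 0.505 to 0.793. For Psmb10 to Psmb7 it was 0.189 with probucol and 0.252 without, 0.750 times as high, with an interval from 0.645 to 0.872. Both intervals stay below 1 also with coding lengths, at upper bounds of 0.874 and 0.915. For Psmb9 to Psmb6 it was 0.0723 against 0.0846, and its interval of 0.631 to 1.15 includes no difference. The 3 pairs therefore lay in the same direction, with that of Psmb9 within counting error.

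**Figure D3:**
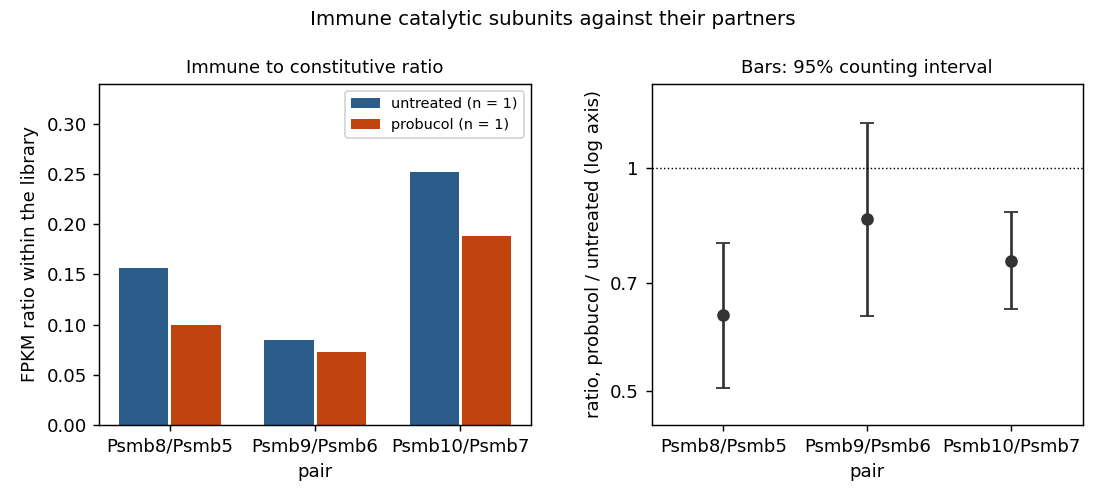
Left, FPKM ratio of each immune subunit to its constitutive partner in the untreated (blue) and probucol (orange) library, 1 library each. Right, the ratio of these ratios (log axis) with the exact 95% counting interval: 0.634 for Psmb8/Psmb5 and 0.750 for Psmb10/Psmb7 with intervals below 1, and 0.855 for Psmb9/Psmb6 with an interval across 1.

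Within these pairs, transcripts of the constitutive subunits were the great majority in both libraries. The partners exceeded the immune subunits by 10.1-fold (Psmb5 over Psmb8), 13.8-fold (Psmb6 over Psmb9) and 5.30-fold (Psmb7 over Psmb10) with probucol. Without it, these ratios were 6.39-fold, 11.8-fold and 3.97-fold. Summed over the 3 pairs, immune subunits had 81.4 FPKM with probucol and 102 without, which was 11.7% and 14.9% of immune and constitutive FPKM together. The immune subunits also differed among themselves, since Psmb10 was above Psmb8 and Psmb9 in each library, by 4.40-fold and 4.23-fold over Psmb9. Psmb11, the thymic variant of Psmb5 that is specific to cortical epithelium, was at 0 in the probucol library and at 0.0663 FPKM in the other, from about 2 fragments. Of the other markers of that epithelium, Foxn1 and Prss16 were listed at 0 in both libraries, and Ccl25 was detected in both, with a log2 ratio of 0.58.

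The 6 ATPases of the 19S cap were all slightly above 0, between 0.05 (Psmc4) and 0.16 (Psmc1), with a median of 0.12. Psmc3 was the most abundant, with 171 FPKM with probucol and 156 without, and Psmc4 the least, with 62.4 against 60.4. Psmc1 had 110 against 98.3 FPKM, Psmc5 had 100 against 89.8, and Psmc2 had 72.6 against 67.4. Psmc6 completed the ring with 111 against 105 FPKM. The order of the 6 by level was therefore the same in both libraries.

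The 11 non-ATPase subunits of the cap had a median of 0.11, with 9 above 0. Psmd12, a scaffold subunit of the lid, had the highest log2 ratio of the cap, 0.26, with 87.9 FPKM with probucol and 73.4 without. It rested on 990 and 929 fragments, with a ratio between 1.09 and 1.31. Psmd11, a lid subunit whose amount has been linked to assembly of the 26S particle, was the lowest at -0.03, with 52.8 against 53.8 FPKM. Psmd2, the large base subunit that docks ubiquitin-like domains, was the most abundant, with 101 against 90.9 FPKM. Psmd14, the metalloprotease that cuts ubiquitin chains from the substrate, was the least abundant, with 45.2 against 44.4 FPKM. Psmd4, a receptor for ubiquitin chains, had 82.4 against 74.1 FPKM (log2 ratio 0.15). The other lid and base subunits lay between -0.02 (Psmd8) and 0.16 (Psmd7).

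Taking the constitutive 20S and the 19S subunits together, 31 of 31 lay within 1.3-fold, between -0.08 (Psma5) and 0.26 (Psmd12). Of these, 25 lay above 0, but when the libraries were scaled without their 10 most abundant genes 12 of 31 did, so the direction of these small differences depends on the scaling. Under that scaling all 31 were still within 1.3-fold, and the 3 immune subunits were still below 0, between -0.70 and -0.32. The median level of the constitutive core was 163 FPKM with probucol and 154 without, above that of the cap subunits at 80.0 and 74.1. Ranked by level, 27 of the 31 shifted by at most 2 places between the libraries, and the largest shift was 4, that of Psmd12.

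The PA28 activators did not follow the immune subunits. PA28 is a ring that opens the core without ATP, and its alpha and beta chains, Psme1 and Psme2, are induced by interferon-gamma along with the immune subunits. Psme1 had 149 FPKM in the treated and 134 in the untreated library (log2 ratio 0.15). Psme2 had 96.4 against 96.0 FPKM, a log2 ratio of 0.01. Psme3, the nuclear PA28 chain, had 34.2 against 29.9 FPKM, a log2 ratio of 0.19. The fragment ratios of Psme1 and Psme3 lay between 1.01 and 1.22 and between 1.02 and 1.29, but with coding lengths these intervals, 0.984 to 1.25 and 0.889 to 1.48, included 1. No fragments were estimated for Psme2, so the counting error of its ratio is not given. Scaled without the 10 most abundant genes, the log2 ratios were 0.05 for Psme1, -0.09 for Psme2 and 0.10 for Psme3. Psme1 (chromosome 14, 55578123 to 55581529) and Psme2 (55587441 to 55591113) are neighbours. Psme2b shares sequence with Psme2, so its 1.41 against 1.68 FPKM are uncertain, but the sum of both rows also had a log2 ratio of 0.00.

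Psme4, which encodes the single-chain activator PA200, was well expressed in both libraries, with 83.3 FPKM with probucol and 70.6 without. Its log2 ratio of 0.24 rested on 3482 and 3310 fragments, with a ratio between 1.12 and 1.24. Scaled without the 10 most abundant genes, the log2 ratio of Psme4 was 0.14. Psmf1, the proteasome-binding regulator PI31, was among the low members, with 6.82 against 5.87 FPKM (log2 ratio 0.20).

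The 7 assembly chaperones among the members were less abundant than the constitutive subunits and less uniform. Psmg1 and Psmg2, which pair to build the alpha ring, had log2 ratios of 0.07 and 0.41, with Psmg2 at 37.9 FPKM with probucol and 28.5 without. Psmg3 and Psmg4 also act as a pair, and they lay on opposite sides of 0. Psmg3 had 9.23 against 12.1 FPKM (-0.37), and Psmg4 had 33.7 against 26.4 FPKM (0.35). Of the 3 chaperones of the cap, Psmd5 had 15.6 against 14.3 FPKM, Psmd9 had 6.46 against 7.14, and Psmd10, also called gankyrin, had 11.6 against 13.5. Their log2 ratios were 0.12, -0.13 and -0.21. No fragments were estimated for Psmg2, Psmg3, Psmg4, Psmd5 or Psmd10, so the counting error of their ratios is not given. Of these 7 chaperones 6 lay within 1.3-fold, and Psmg2 lay outside it but short of 1.5-fold. Pomp, the maturation factor of the core that lies outside the symbol rule, had 205 against 188 FPKM (0.13). Psmc3ip, the member that is no proteasome subunit, had 2.54 against 2.80 FPKM (-0.12).

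Most lists of genes that work with the proteasome had medians near or slightly above 0, and that of the activating enzymes lay below 0. Of 16 measured receptors, shuttles and deubiquitinases, 0 passed 1.5-fold in either direction, 14 lay above 0 and the median was 0.23. Over all measured genes, 5.52% were at least 1.5-fold higher and 12.0% lower, and 6563 of 12882 lay above 0. In lists this short, 1 gene past 1.5-fold is not set apart from those shares. The lists were not rescaled. Ubqln4, a ubiquitin shuttle, had the largest ratio at 0.54, followed by AI314180 (0.50), a proteasome scaffold, and Zfand5 (0.39), a proteasome activator of wasting muscle. The segregase Vcp, which extracts ubiquitinated proteins, had 175 against 149 FPKM, and of the 11 genes of Vcp and its cofactors 1 was past 1.5-fold, Faf1 at 0.61. Ubb, a gene of ubiquitin itself, had 313 against 302 FPKM (0.05). Of 8 ubiquitin ligases of muscle wasting, Fbxo32, also called atrogin-1, was past 1.5-fold, with 39.2 FPKM with probucol and 22.5 without (0.79). Trim54 was at 0.48 and Trim63, also called MuRF1, at 0.38. Of 8 activating enzymes, 6 lay below 0, and the median of the 8 was -0.16. Among them Uba6 was past 1.5-fold in the lower direction, at -0.80. Nfe2l1, the factor that raises proteasome genes when activity falls short, had 156 against 134 FPKM (0.22), and Nfe2l2, its antioxidant relative, had 46.0 against 56.3 (-0.29). Of the 9 regulators in that list, 5 lay above 0 and 4 below. Foxo3 had the largest ratio, 0.46, and none passed 1.5-fold.

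Genes of class I peptide loading and of interferon signalling lay on the side of the immune subunits. Of 11 loading genes, 3 were lower and 0 higher by 1.5-fold or more, beside 12.0% and 5.52% of all measured genes, and the median was -0.18. H2-D1 (-0.85), a class I heavy chain, was the lowest, followed by B2m (-0.64), its light chain, and Tap1 (-0.63), a chain of the peptide transporter. Psmb8 and Psmb9 lie beside Tap1 and Tap2 in the class II region of chromosome 17, where Tap1 had 2.94 against 4.83 FPKM and Tap2 had 10.4 against 11.2 (-0.10). The 4 neighbours therefore ranged from -0.63 to -0.10. Psmb9 and Tap1 overlap on opposite strands by 212 exonic bases, and none of the sources used here says whether the authors' counting used strand. Of 10 interferon regulators, 3 were past 1.5-fold, Irf8 (-1.38), Nlrc5 (-0.91) and Irf9 (-0.90), all lower, as were 12.0% of all measured genes. Irf1, which binds promoters of immune subunits, had 17.4 against 17.2 FPKM.

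**Figure D4:**
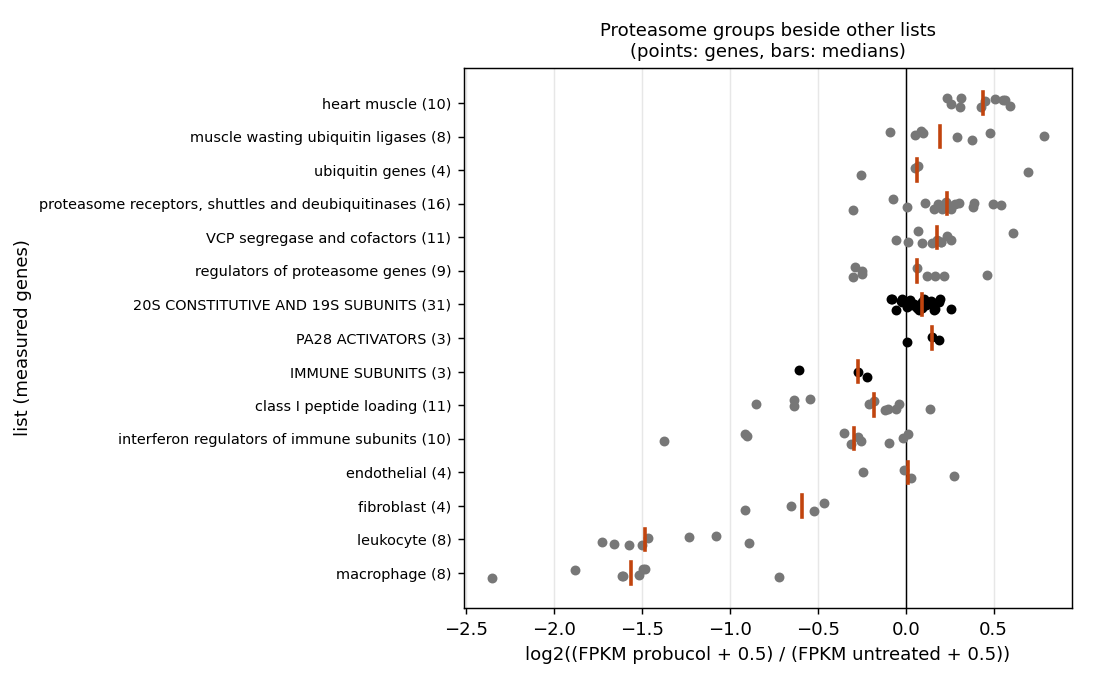
Log2 ratio of probucol over untreated (1 library each) for the measured genes of each list, points for genes and orange bars for medians, with proteasome groups in capitals and black. The 31 constitutive subunits cluster near their median of 0.09, the immune subunits lie at -0.22 to -0.61, and leukocyte and macrophage markers lie lower, with medians of -1.48 and -1.56.

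Leukocyte markers moved with the immune subunits and further. All 8 general leukocyte markers were lower by 1.5-fold or more (median -1.48), and their summed level was 281 FPKM with probucol and 787 without. All 8 macrophage markers were lower too, with a median of -1.56 and sums of 1077 against 3556 FPKM. Ptprc, the common leukocyte antigen, had 4.03 against 12.0 FPKM. Of T cell markers, Cd3e was listed at 0 without probucol and Cd3g with it, and 0 of 4 listed passed the filter. Of 4 B cell markers 1 passed, Cd79b, with 1.06 against 0.541 FPKM. The 4 fibroblast markers were also below 0, with a median of -0.59, and 2 of them were lower by 1.5-fold or more, Col1a1 at -0.91 and Tcf21 at -0.65. The 10 heart muscle markers had a median of 0.44, and the 4 endothelial markers of 0.01. In bulk tissue, fewer cells of a type and less RNA per cell cannot be told apart. The part of leukocyte or fibroblast content in the lower immune subunits was not tested.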

How the data were processed

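RNA was measured in 1 heart library per group, grouped by the treatment label. RNA was isolated by miRNeasy and libraries prepared with TruSeq stranded mRNA reagents, per the labels' protocols. The authors deposited FPKM, 1 value per gene symbol. Cuffdiff 2.2.1, Bowtie2, TopHat2 2.1.1 and the build mm10 are named in the submitters' processing notes. Their roles, the annotation and the scaling are not given in those sources.

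Log2 ratios used a pseudocount of 0.5 FPKM and a minimum mean of 0.5 FPKM. Limits were 1.5-fold and 2-fold. Fragments were estimated for genes with 1 curated RefSeq transcript (35 of 49 measured members), from transcript lengths of GENCODE M21 less 210 bases. Of 1124 and 1066 low values (under 0.6 FPKM and 6 fragments), 69.8% and 69.3% came within 0.05 of a whole fragment. Intervals are exact 95% binomial (Clopper-Pearson), and exact conditional odds ratios for pairs. They cover counting error only.

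The code was run on counts simulated from its own transcript lengths and fragment values, without variation between animals. That run checks the code only and says nothing about the differences described here. Python 3.11.15 and scipy 1.17.1 were used. Upstream sequences came from RefSeq, matched by symbol for 40 of 48 proteasome genes. For 35 of the 40 the letters after the start match the beginning of a GENCODE transcript. Named genes were the immune subunits, their partners, activators and assembly factors, the extremes of each subcomplex, regulators, and up to 3 genes of each list. Some genes that this rule takes are not reported here. The members and lists were chosen with earlier results of these data known. Pseudocounts, filters and scalings were varied.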

Additional observations from a re-analysis of the deposited data

How the results depend on the processing

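Pseudocounts of 0.1 and 1 FPKM, filters of 1 FPKM and none, and 2 rescalings were tried. The count of members at least 1.5-fold lower was 1 in each. The count at least 1.5-fold higher was 0, except that it was 1 with a pseudocount of 0.1 FPKM, when Psma8 (log2 ratio 0.65) passed. Scaling without the 10 most abundant genes moved the median of all measured genes from 0.01 to -0.08. It moved the subcomplex medians to 0.0194 for the ATPase ring, 0.0178 for the non-ATPase subunits, -0.0242 for the alpha subunits and -0.0884 for the constitutive beta subunits. Under that scaling the median of the PA28 activators went from 0.152 to 0.0541, and that of the assembly chaperones from 0.0723 to -0.0234. The median of the immune subunits went from -0.269 to -0.363. The 3 pair ratios stayed within their counting intervals under the alternatives run for them. These alternatives were the pseudocounts and estimated fragments. No replicate could be left out. No paired analysis was possible because each group has 1 library. Depth limits Psmb9, Psmb11, Psme2b and Psmc3ip, the members with the fewest fragments among those with an estimate. For 7 members that share exon bases with a coding gene on the opposite strand, among them Psmb7 (Nek6, 405 bases) and Psmb9, reads of the partner cannot be told apart if strand was not used. Psme2b shares 41 bases with 9930111J21Rik1 on the same strand.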
